A study of Mus musculus with 4 samples.

Results

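Wnt signalling in the newborn mouse oviduct and uterus was read from 10 genes, picked by symbol out of the 31053 genes in the deposited single-cell matrices. They are the secreted Wnt inhibitors Sfrp1, Sfrp2, Sfrp4, Sfrp5 and Notum, the R-spondins Rspo1 and Rspo3, and the response genes Axin2, Lgr5 and Nkd2, with Notum counted as a response gene as well. All 10 had reads in each of the 4 libraries. Another 83 genes of the pathway, from a list of ligands, receptors, inhibitors, cytoplasmic parts and targets, are given as counts and by name where a rule picked them.

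Cells came from untreated wild-type CD1 (ICR) neonates at postnatal day 3. There were 2 libraries of oviduct and 2 of uterus. Each library held organs pooled from 3 or from 4 neonates, and the same animals gave both organs. The tissue was taken apart by Dispase II and Collagenase B, with DNase I added, and run on Chromium 3' chemistry v3.1, which counts molecules by unique molecular identifiers (UMIs). With pools as replicates, the p-values below measure only the spread between these libraries.

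Wnt proteins carry a lipid, bind Frizzled receptors with Lrp5 or Lrp6, and keep beta-catenin from being destroyed, so that it can switch on genes with Tcf and Lef factors. Secreted Frizzled-related proteins (Sfrp) bind Wnt ligands outside the cell, while Notum is an enzyme that removes the lipid. R-spondins bind Lgr receptors and so clear the ubiquitin ligases Rnf43 and Znrf3 from the membrane, which leaves more Frizzled at the surface. Axin2, a scaffold of the destruction complex, and Nkd2, a binder of Dishevelled, are induced by the pathway and dampen it, and Lgr5, an R-spondin receptor, is a common target that marks stem cells in several epithelia. In the Müllerian duct, from which both organs form, Wnt ligands of the epithelium and the mesenchyme pattern the tract and are needed for uterine glands.

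The libraries held 7808 and 6773 called barcodes for oviduct and 5716 and 6322 for uterus, with 61117726 to 114419939 UMIs each and a median of 9608 to 11890.5 UMIs per barcode. After filters 20164 cells were kept, and 17508 of them fell into a class by a gate on marker genes. Library pairs shared 8 to 15 barcodes, 0.127% to 0.262% of the smaller library. The labels name mesenchymal and epithelial cells, and both were found by their markers: the 14 epithelial markers summed to 5870 to 6842 counts per 1000000 UMIs (CPM) in the epithelial class against 104 to 270 CPM in the mesenchymal class. Smooth muscle, mesothelium (the outer lining of the organs), pericytes, blood endothelium and myeloid cells were gated as well. Mesenchyme held 4457 and 3409 oviduct cells and 2544 and 2568 uterine cells. Epithelium held 172, 308, 65 and 90 cells, and mesothelium 284, 337, 42 and 34, in the order oviduct replicate 1, oviduct replicate 2, uterus replicate 1, uterus replicate 2. That order is used for every list of 4 values below.

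Some of these classes were impure or rested on few cells. The epithelial sums came mostly from a cluster led by Icam1, Gdf15, Neat1 and Hbegf, whose 97, 153, 23 and 21 cells held 96.3%, 94.2%, 91.2% and 93.4% of the epithelial UMIs. Its cells had a median of 33218, 28689, 53440 and 65610 UMIs, against 2635, 2468, 2396 and 1480 in the other epithelial cells. Smooth muscle cells lay close to mesenchyme, with 23.2%, 23.0%, 35.3% and 36.4% of them near the limit of the gate. The mesenchymal gate also took in 367 cells of a cluster led by Wfdc2, Fxyd3 and Krt18, found in the oviduct, 291 oviduct cells of a cluster named mesothelium (led by Krt19, Podxl and Tm4sf5), 371 uterine cells of a cluster named smooth muscle (led by S100a9, Cxcl14 and Acta2), and 116 cells of a cluster of 656 cells, 529 of them from uterus replicate 2, with a median mitochondrial share of 13.7% against 4.48% in other cells. Results for mesenchyme were therefore repeated on the gated cells whose cluster had the same class name and a low mitochondrial share, 3934, 2918, 2221 and 2192 cells. Markers of ovarian germ and somatic cells were low in every class tested here, at 0 to 9.73 CPM summed over 7 genes.

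In the mm10 annotation used here (GENCODE M21), Sfrp1 lies at chr8:23411502-23449632 (+), Sfrp2 at chr3:83766321-83774316 (+), Sfrp4 at chr13:19623104-19632994 (+) and Sfrp5 at chr19:42197971-42202252 (-). Rspo1 lies at chr4:124986430-125009099 (+) and Rspo3 at chr10:29452416-29535867 (-). Notum lies at chr11:120653788-120661175 (-), Nkd2 at chr13:73818534-73847631 (-), Lgr5 at chr10:115450311-115587780 (-) and Axin2 at chr11:108920349-108950783 (+). None of the 10 overlapped another gene on its own strand, while Notum overlapped Notumos and Myadml2os on the other strand, and Sfrp2, Rspo1, Rspo3, Lgr5 and Axin2 each 1 predicted or unnamed gene.

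The promoters of 5 of the 10 genes were in the RefSeq table of mouse promoters (build GRCm38.p6). Axin2 and Nkd2 are printed as response genes that differed from each other, since Nkd2 was higher in uterine mesenchyme and Axin2 did not pass the test there. Sp5, a response gene of the wider list, is printed beside them for its Tcf/Lef motif. Its level was higher in oviduct mesenchyme, which is only a description, since it passed the count filter only through the oviduct. Each line gives the 250 bases before the annotated start, 5′ to 3′ on the gene's strand, with a Tcf/Lef motif in capitals where there is one. The windows are chr11:108920099-108920348 on the + strand for Axin2, chr13:73847632-73847881 on the - strand for Nkd2 and chr2:70474673-70474922 on the + strand for Sp5.
Axin2: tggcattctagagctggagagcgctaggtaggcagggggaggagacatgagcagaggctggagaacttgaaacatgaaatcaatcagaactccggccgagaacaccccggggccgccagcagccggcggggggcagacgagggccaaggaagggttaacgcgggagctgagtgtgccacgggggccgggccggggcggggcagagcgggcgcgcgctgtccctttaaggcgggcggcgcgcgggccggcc
Nkd2: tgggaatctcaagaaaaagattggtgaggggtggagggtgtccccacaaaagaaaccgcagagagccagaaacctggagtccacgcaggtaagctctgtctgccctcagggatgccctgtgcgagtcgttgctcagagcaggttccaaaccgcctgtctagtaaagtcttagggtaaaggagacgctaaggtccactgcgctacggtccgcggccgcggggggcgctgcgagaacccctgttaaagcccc
Sp5: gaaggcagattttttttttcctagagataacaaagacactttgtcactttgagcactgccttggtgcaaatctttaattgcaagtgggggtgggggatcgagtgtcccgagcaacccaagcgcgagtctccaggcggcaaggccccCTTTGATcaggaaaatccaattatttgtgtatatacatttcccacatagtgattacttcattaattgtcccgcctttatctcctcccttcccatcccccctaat

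The motifs searched were CTTTGAT and CTTTGAA on both strands. Sp5 held CTTTGAT with its first base 104 bases before the start, and the Axin2 and Nkd2 windows held neither motif. Neither motif was in any of the 5 promoters of the 10 genes that were at hand, while one was in 5 of the 58 promoters of the wider Wnt list and in 7.48% (2457 of 32851) of all promoters of this length. A window without a motif says only that these letters are not in it.

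Across the tissue layers, the mean levels of Sfrp1, Sfrp4, Nkd2 and Axin2 were highest in mesenchyme in both organs, and that of Notum in the oviduct. Rspo1 was highest in mesothelium in both organs, and Rspo3 was highest in mesothelium in the uterus and in smooth muscle in the oviduct. Sfrp2 was highest in smooth muscle in the uterus, Lgr5 in the uterus was highest in epithelium, and Sfrp5 was seen mainly in mesothelium and epithelium of the oviduct. In the mesenchymal gate lay 79.5% to 89.8% of all Sfrp1 UMIs of kept cells, 80.3% to 88.7% of Sfrp4, 83.4% to 90.1% of Notum, 81.4% to 87.8% of Nkd2 and 66.4% to 83.8% of Axin2, a share that also follows how many cells each class had.

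**Figure D1:**
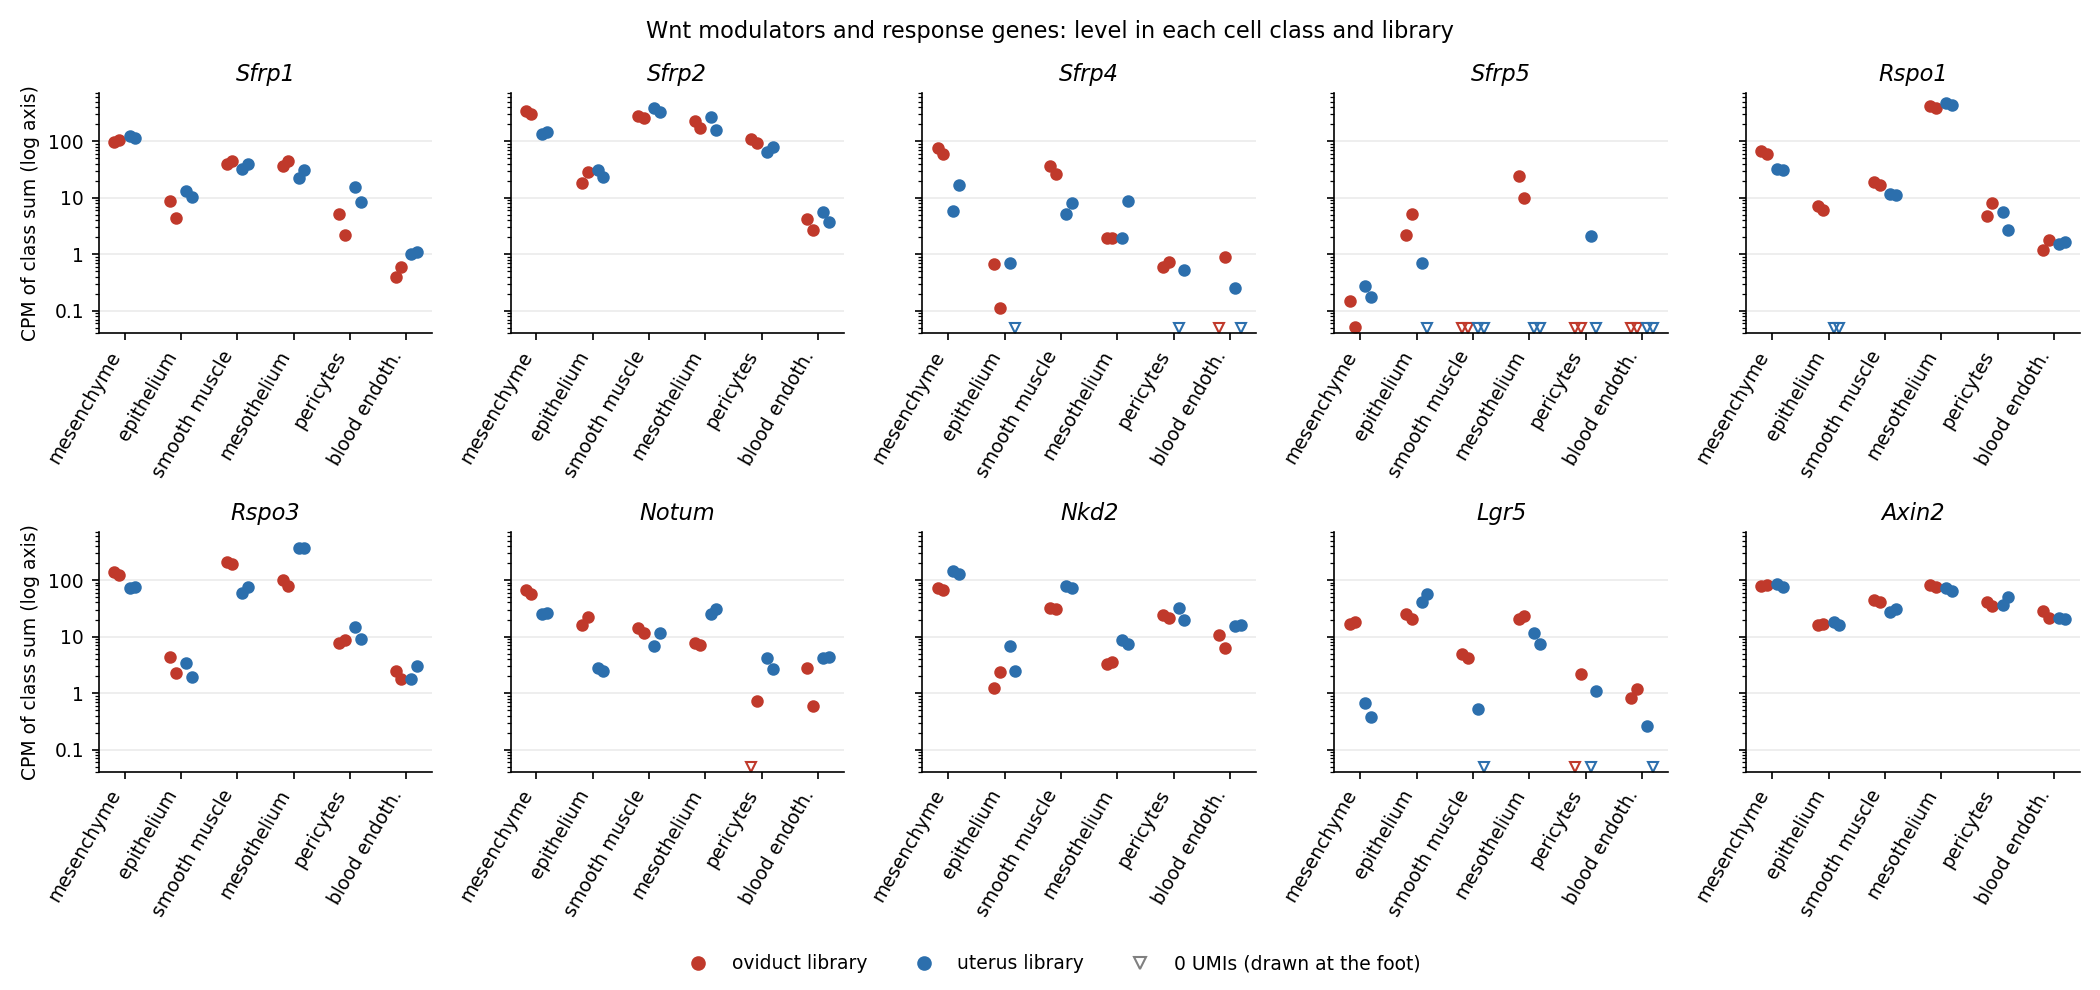
Level of each of the 10 genes in each cell class, in CPM of the summed class on a log axis, with 1 point per library (oviduct and uterus, 2 libraries each). Lgr5 in mesenchyme is at 16.7 and 17.7 CPM in the oviduct and at 0.664 and 0.380 CPM in the uterus, while Axin2 in mesenchyme lies between 73.7 and 84.0 CPM in all 4 libraries.

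Epithelium was set against mesenchyme within each organ, in edgeR's quasi-likelihood test with Benjamini-Hochberg adjustment over all genes. In the oviduct all 10 genes differed, 8 of them lower in epithelium, where 69.5% of all genes tested were called and 35.0% were lower. In the uterus 9 of 10 differed, 8 of them lower, where 52.4% of all genes were called and 29.7% were lower. With shares of all genes this large, the count says little about these 10.

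The feedback gene Axin2 reached 16.1, 16.4, 17.9 and 15.9 CPM in epithelium and 78.8, 81.4, 84.0 and 73.7 CPM in mesenchyme. All 4 epithelial values lay below all mesenchymal ones, and the log2 difference was -2.27 ± 0.10 (SE) for the oviduct and -2.46 ± 0.15 for the uterus (adjusted p = 4.34e-14 and 1.57e-11). Nkd2 was lower still by difference, -5.19 ± 0.18 and -5.20 ± 0.22, but up to 63.7% and 94.1% of its few epithelial UMIs could be free RNA. Notum was lower in epithelium by -1.62 ± 0.14 for the oviduct and -3.59 ± 0.37 for the uterus.

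Among the secreted modulators, Sfrp1 was lower in epithelium by a log2 difference of -3.97 ± 0.17 for the oviduct and -3.61 ± 0.22 for the uterus. Rspo3, an R-spondin, was at 4.30, 2.28, 3.45 and 1.93 CPM in epithelium, -5.30 ± 0.16 and -5.11 ± 0.27 below mesenchyme on the log2 scale. Up to 58.0% and 45.5% of those epithelial UMIs could be free RNA.

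Sfrp2 was lower by -3.72 ± 0.18 and -2.65 ± 0.24, and Sfrp4 by -7.43 ± 0.26 and -5.58 ± 0.68, from 0 to 5 epithelial UMIs per library, all of which over both libraries of an organ could be free RNA. Rspo1 was lower by -3.22 ± 0.11 in the oviduct and had 0 UMIs in uterine epithelium.

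Sfrp5 and Lgr5 went the other way. Sfrp5 was higher in oviduct epithelium by 5.16 ± 0.64 (adjusted p = 1.18e-06), from 16 and 46 UMIs there and 9 and 2 in mesenchyme, where up to 99.1% and 100% could be free RNA. In uterine epithelium it had 1 and 0 UMIs. For Lgr5 in the uterus the levels were 41.4 and 57.5 CPM in epithelium and 0.664 and 0.380 CPM in mesenchyme, a log2 difference of 6.34 ± 0.27 (adjusted p = 4.37e-14). For Lgr5 in the oviduct the layers were close, 25.5 and 20.2 CPM in epithelium against 16.7 and 17.7 CPM in mesenchyme. The oviduct difference of 0.43 ± 0.14 passed the test (adjusted p = 0.0113) but not with the stricter marker gate, the cells whose gate and cluster matched, free RNA subtracted, DESeq2 or oviduct replicate 1 left out, where adjusted p was 0.0604 to 0.355.

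**Figure D2:**
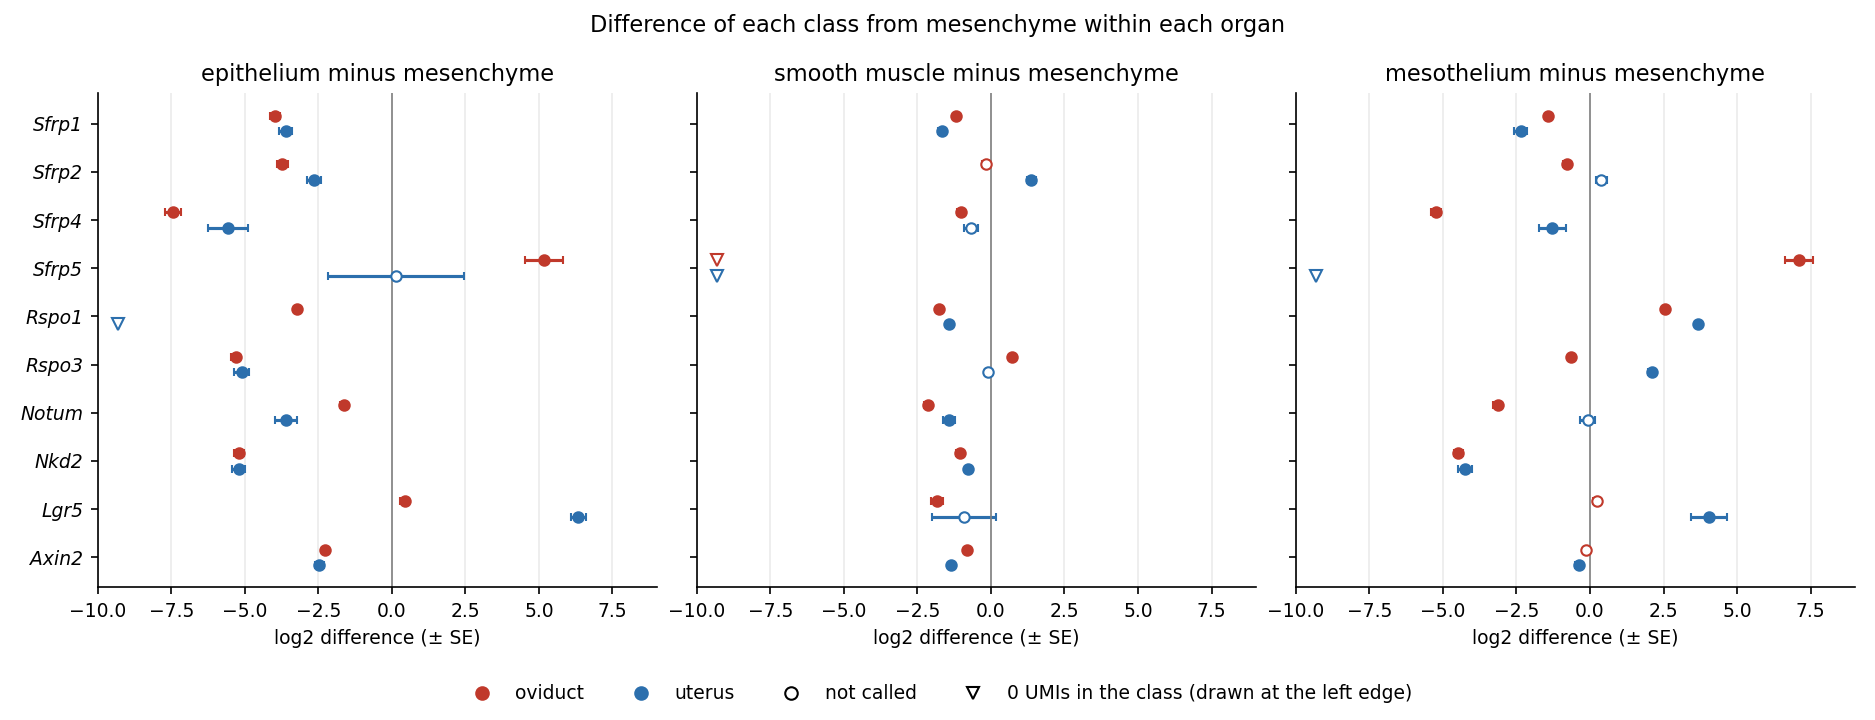
Log2 difference of each gene between epithelium, smooth muscle or mesothelium and the mesenchyme of the same organ, with its standard error, for oviduct and uterus. Axin2 lies at -2.27 and -2.46 in epithelium, and Lgr5 at 0.43 in oviduct and 6.34 in uterus epithelium. Open triangles mark a group with 0 UMIs, whose fitted value is no measure of size.

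Mesothelium was set against mesenchyme in the same way. Of the 10 genes 8 differed in the oviduct, 2 higher and 6 lower in mesothelium, where 54.2% of all genes tested were called, 27.7% higher and 26.5% lower. In the uterus 7 differed, 3 higher and 4 lower, where 33.9% were called, 17.4% higher and 16.6% lower. Rspo1, the R-spondin known for its part in ovary formation, was at 419, 384, 481 and 438 CPM in mesothelium against 67.7, 59.6, 32.9 and 30.4 CPM in mesenchyme. Mesothelium was above mesenchyme in every library, by a log2 difference of 2.56 ± 0.07 for the oviduct and 3.66 ± 0.09 for the uterus (adjusted p = 2.51e-16 and 2.91e-17). The 284 and 337 mesothelial cells of the oviduct held 52.2% and 55.9% of all Rspo1 UMIs of kept cells there, and the 42 and 34 of the uterus 26.2% and 18.8%.

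In the uterus Rspo3 and Lgr5 were higher in mesothelium too. Rspo3 was at 364 and 365 CPM in mesothelium against 73.0 and 76.0 CPM in mesenchyme, a log2 difference of 2.10 ± 0.11 (adjusted p = 2.00e-12). Lgr5 was at 11.7 and 7.51 CPM, from 12 and 6 UMIs, a difference of 4.04 ± 0.60 (adjusted p = 1.73e-05). In the oviduct Rspo3 was lower in mesothelium than in mesenchyme, at 102 and 78.5 CPM against 136 and 124 CPM.

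Nkd2 was lower in mesothelium, by -4.48 ± 0.15 and -4.24 ± 0.24, and up to 100%, 72.8%, 100% and 72.8% of its mesothelial UMIs could be free RNA.

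Axin2 stood at 81.4, 76.1, 73.0 and 65.1 CPM in mesothelium, with a log2 difference from mesenchyme of -0.12 ± 0.08 in the oviduct (adjusted p = 0.225) and -0.39 ± 0.13 in the uterus (adjusted p = 0.0284). The uterine Axin2 call was lost with doublets kept, under DESeq2 and without either uterine library (adjusted p 0.0646 to 0.119).

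Smooth muscle differed from mesenchyme in 8 of 10 genes in the oviduct, 7 of them lower, where 25.5% of all genes tested were called, 12.1% higher and 13.3% lower. In the uterus 6 of 10 differed, 5 of them lower, where 13.1% were called, 6.95% higher and 6.14% lower. Axin2 was lower by -0.83 ± 0.09 and -1.36 ± 0.11, and Notum by -2.14 ± 0.15 and -1.43 ± 0.21. Sfrp2 was the exception in the uterus, where it was higher in smooth muscle by 1.38 ± 0.15 (adjusted p = 6.91e-07), while in the oviduct it differed by -0.17 ± 0.14 (adjusted p = 0.444). Rspo3 was higher in smooth muscle of the oviduct by 0.72 ± 0.09 (adjusted p = 3.83e-06).

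The organs were then compared within each class, oviduct minus uterus, with edgeR's quasi-likelihood test and Benjamini-Hochberg adjustment over all genes tested. In mesenchyme 9 of the 10 genes had enough UMIs to be tested and 8 differed, 6 of them on the oviduct side (higher there) and 2 on the uterine side. Of all 15704 genes tested 46.4% were called, 24.5% on the oviduct side and 21.9% on the uterine side. The median log2 difference of the 9 genes was 0.95, against 0.00 over all genes. The 10 genes were chosen with earlier results of these data known, so this median and the count of calls are only a description. Axin2 was the member that did not differ.

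Among the inhibitors, Sfrp4 was at 75.0, 59.6, 5.78 and 16.5 CPM in mesenchyme. Both oviduct libraries were above both uterine ones, with a log2 difference of 2.52 ± 0.31 (adjusted p = 2.92e-05), although the uterine libraries were far apart and leaving them out in turn gave 1.95 and 3.51. Sfrp2 was at 339, 306, 136 and 149 CPM, higher in the oviduct by 1.12 ± 0.09 (adjusted p = 4.93e-07). Sfrp1 was at 97.6, 107, 122 and 113 CPM, higher in the uterus by a log2 difference of -0.26 ± 0.08 (adjusted p = 0.0189). The groups did not overlap for Sfrp1, but its call was lost with cells classed by cluster, with the cells whose gate and cluster matched, and without oviduct replicate 1 or uterus replicate 1, where adjusted p was 0.0983 to 0.375.

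Notum, which removes the lipid of Wnt proteins, was at 66.2, 55.9, 25.1 and 26.5 CPM. It was higher in the oviduct by 1.19 ± 0.10 (adjusted p = 8.62e-07), with no overlap. Sfrp5 had 9, 2, 10 and 7 UMIs in mesenchyme and was too low to be tested there.

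Both R-spondins were higher in oviduct mesenchyme. Rspo1 was at 67.7, 59.6, 32.9 and 30.4 CPM, a log2 difference of 0.95 ± 0.09 (adjusted p = 2.76e-06). Rspo3 was at 136, 124, 73.0 and 76.0 CPM, a difference of 0.75 ± 0.08 (adjusted p = 1.26e-05). Neither overlapped between the organs.

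The response genes split 3 ways in mesenchyme. Lgr5 had 1007 and 686 UMIs in the oviduct against 24 and 15 in the uterus, 16.7, 17.7, 0.664 and 0.380 CPM, and was higher in the oviduct by 4.99 ± 0.17 (adjusted p = 3.23e-10). Up to 3.73% of the Lgr5 UMIs in oviduct mesenchyme and 28.0% of those in uterine mesenchyme could be free RNA. Nkd2 was at 72.0, 66.4, 142 and 127 CPM and was higher in the uterus, with a difference of -1.02 ± 0.08 (adjusted p = 8.12e-07). Axin2 was at 78.8, 81.4, 84.0 and 73.7 CPM, where the uterine values enclosed those of the oviduct, with a difference of -0.03 ± 0.08 (adjusted p = 0.766). Counting Notum, 2 of the 4 response genes were higher in the oviduct, 1 was higher in the uterus and 1 did not pass the test.

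**Figure D3:**
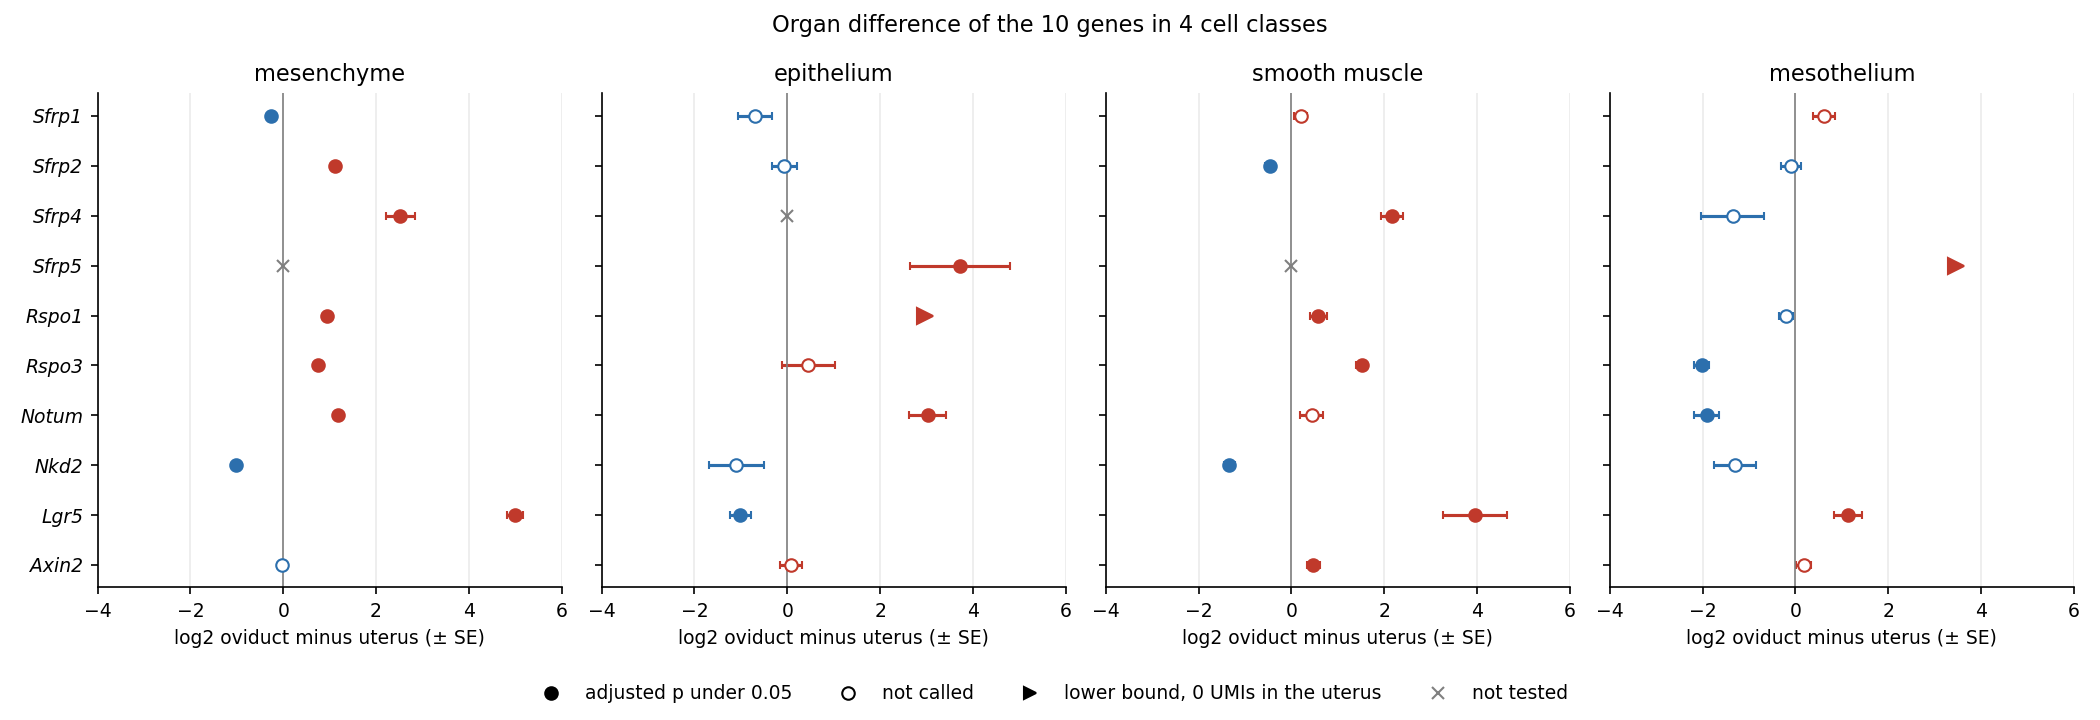
Log2 difference, oviduct minus uterus, of each gene in each cell class, with its standard error; filled points passed the test across all genes at an adjusted p of 0.05. In mesenchyme Lgr5 is at 4.99 and Nkd2 at -1.02, and in mesothelium Rspo3 is at -2.02 and Notum at -1.91. Arrows mark lower bounds against a group with 0 UMIs.

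In epithelium 4 of 9 genes differed between the organs, 3 on the oviduct side and 1 on the uterine side, where 22.1% of all genes tested were called, 13.7% and 8.44% by direction. Of the 3, Rspo1 and Sfrp5 had at most 1 UMI per uterine library and passed the count filter only through the oviduct. Their place in this count is therefore only a description. Notum was at 15.98 and 22.5 CPM in oviduct epithelium and at 2.76 and 2.41 CPM in uterine epithelium, from 119, 197, 4 and 5 UMIs. The highest cell held 8.40% and 24.4% of the oviduct UMIs in replicates 1 and 2. The oviduct was higher by a log2 difference of 3.03 ± 0.39 (adjusted p = 7.18e-05), in the same direction as in mesenchyme.

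Lgr5 was at 25.5, 20.2, 41.4 and 57.5 CPM in epithelium, with both uterine values above those of the oviduct, and differed by -1.01 ± 0.22 (adjusted p = 0.00409). It was seen in 38 of 172, 60 of 308, 14 of 65 and 19 of 90 epithelial cells, so few cells carried it in the uterus, which had fewer epithelial cells. There 2 and 4 cells held 50% or more of its 60 and 119 UMIs, and the highest cell held 43.3% and 18.5%. In the oviduct 5 and 11 cells held 50% or more, and the highest cell held 19.5% and 7.91%. Without uterus replicate 2 the difference was -0.69 (adjusted p = 0.0833). The deep cluster that held most epithelial UMIs also held 184, 161, 58 and 118 of the 190, 177, 60 and 119 Lgr5 UMIs. Its order was the same, which adds nothing to the class sum. In the shallow epithelial clusters Lgr5 had 0 to 6 UMIs per library and cluster, and in the shallow cluster led by Lars2 and Hist1h1d it was at 48.4, 91.0, 29.7 and 0 CPM, higher in the oviduct.

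Rspo1 had 54 UMIs in each oviduct epithelium and 0 of 3521450 UMIs in uterine epithelium, where a count of 0 allows up to 0.852 CPM. With free RNA not taken off, the oviduct was at least 7.82-fold higher, against a floor of 3 UMIs over both uterine libraries (adjusted p = 3.33e-04). Rspo1 and Sfrp5 passed the count filter only through the oviduct, so their adjusted p here are only a description. The deep cluster held 53 and 31 of the oviduct Rspo1 UMIs, and each shallow epithelial cluster 0 or 1 per library. The other UMIs of oviduct replicate 2 lay in gated cells of clusters with another class name or none. Up to 36.0% of the oviduct UMIs could be free RNA, the highest cells held 31.5% and 24.1% of them, and with doublets kept the difference was 1.21 (adjusted p = 0.159). Sfrp5 had 16, 46, 1 and 0 UMIs, a ratio of 13.5 with an exact interval of 2.33 to 541 (counting error only, adjusted p = 0.0225), and its call was lost under DESeq2 and without uterus replicate 2 (adjusted p = 0.126 in both).

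Sfrp1 (-0.70 ± 0.37, adjusted p = 0.203), Sfrp2 (-0.06 ± 0.26, adjusted p = 0.895), Rspo3 (0.46 ± 0.58, adjusted p = 0.626) and Nkd2 (-1.10 ± 0.59, adjusted p = 0.21) did not pass the test between the organs in epithelium, and Sfrp4 had too few UMIs to be tested. With cells classed by cluster epithelial Nkd2 passed (-1.52, adjusted p = 0.028). Axin2 did not pass there either. Its values of 16.1, 16.4, 17.9 and 15.9 CPM overlapped between the organs, with a difference of 0.08 ± 0.24 (adjusted p = 0.852).

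Mesothelium held the reversed pattern for Rspo3 and Notum. In this class 4 of 10 genes differed between organs, 2 in each direction, where 6.21% of all genes tested were called, 3.36% and 2.85% by direction. Rspo3 was at 102, 78.5, 364 and 365 CPM, so that both uterine libraries were above both of the oviduct, by a log2 difference of -2.02 ± 0.16 (adjusted p = 3.37e-06). In mesenchyme the same gene was higher in the oviduct. Notum was at 7.69, 7.19, 25.3 and 31.3 CPM, a difference of -1.91 ± 0.27 (adjusted p = 4.97e-04). It had 96, 66, 26 and 25 UMIs, the uterine ones in only 15 and 12 cells. Up to 49.4% of the oviduct Notum UMIs could be free RNA against 6.62% in the uterus, and the direction held with that amount subtracted, at -2.76 (adjusted p = 0.00191).

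Lgr5 was at 20.8, 22.8, 11.7 and 7.51 CPM in mesothelium, higher in the oviduct by 1.14 ± 0.31 (adjusted p = 0.0402). That call rested on 12 and 6 uterine UMIs and was lost with the stricter gate, with free RNA subtracted, under DESeq2 and without oviduct replicate 1, oviduct replicate 2 or uterus replicate 2, where adjusted p was 0.0577 to 0.254. Sfrp5 had 303 and 90 UMIs in oviduct mesothelium, up to 63 of them in 1 cell, and 0 in the uterus, at least 11-fold higher in the oviduct (adjusted p = 0.012, and 0.0524 and 0.0535 with the stricter gate and with free RNA subtracted). It passed the count filter only through the oviduct, so its place in the count of calls above is only a description. Rspo1 and Axin2 did not pass, at -0.20 ± 0.14 (adjusted p = 0.515) and 0.18 ± 0.16 (adjusted p = 0.638). Nor did Sfrp1 (0.62 ± 0.24, adjusted p = 0.158), Sfrp2 (-0.09 ± 0.21, adjusted p = 0.873), Sfrp4 (-1.35 ± 0.68, adjusted p = 0.314) and Nkd2 (-1.30 ± 0.46, adjusted p = 0.125, but 0.0169 with cells classed by cluster). The uterine mesothelium also carried more mesenchymal marker RNA, 11924 and 8344 CPM over 11 genes against 6471 and 6054 CPM in the oviduct, and its part in these differences was not tested.

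In smooth muscle Sfrp4, Rspo1, Rspo3, Nkd2 and Lgr5 differed in the same direction as in mesenchyme. In all 7 of 9 genes differed, 5 higher in the oviduct, where 22.3% of all genes tested were called, 12.2% on the oviduct side and 10.1% on the uterine side. Lgr5 had 2 and 0 uterine UMIs and was tested only through its oviduct counts, so its place here and in the count is only a description. Rspo3 was at 210, 194, 58.9 and 76.0 CPM, a log2 difference of 1.52 ± 0.12 (adjusted p = 8.98e-07). Nkd2 was at 31.6, 30.8, 78.2 and 72.9 CPM, higher in the uterus by a difference of -1.34 ± 0.12 (adjusted p = 1.91e-06). Sfrp4 was higher in the oviduct, 35.8, 26.5, 5.21 and 8.02 CPM, by 2.17 ± 0.24 (adjusted p = 1.35e-05).

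Sfrp2 was at 284, 257, 381 and 334 CPM in smooth muscle, higher in the uterus by a difference of -0.47 ± 0.10 (adjusted p = 0.00335), opposite to mesenchyme, and this call was lost with cells classed by cluster (-0.20, adjusted p = 0.134). Lgr5 had 40, 30, 2 and 0 UMIs, a ratio of 17.6 with an exact interval of 4.68 to 148 (adjusted p = 8.07e-04), lost with the stricter gate (adjusted p = 0.0548). It passed the count filter only through the oviduct, so this call is only a description. Its fitted log2 difference of 3.96 was 7.86 without uterus replicate 1, against 0 UMIs, and 3.03 without uterus replicate 2. Axin2 was at 44.2, 41.0, 27.6 and 31.0 CPM, higher in the oviduct by 0.47 ± 0.14 (adjusted p = 0.0247), and Rspo1 was higher by 0.58 ± 0.18 (adjusted p = 0.0365). Axin2 lost its call with the stricter gate, with the cells whose gate and cluster matched, under DESeq2 and without oviduct replicate 1 or uterus replicate 1 (adjusted p 0.0824 to 0.178). Rspo1 lost its call with the stricter gate, with free RNA subtracted, under DESeq2 and without oviduct replicate 1, uterus replicate 1 or uterus replicate 2 (adjusted p 0.101 to 0.682). With the stricter marker gate 4 of the 9 tested genes were called, with 1390 calls over all genes. Sfrp1 (0.20 ± 0.14, adjusted p = 0.363) and Notum (0.44 ± 0.25, adjusted p = 0.249) did not pass, and Sfrp5 had 0 UMIs. With cells classed by cluster Sfrp1 passed in the other direction (-1.09, adjusted p = 1.20e-05). Notum passed with cells classed by cluster (0.77, adjusted p = 0.00561) and with matching gate and cluster (0.80, adjusted p = 0.0223).

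In pericytes and blood endothelium edgeR called 0 of the 5 tested genes in each, where 4.78% (3.27% on the oviduct side and 1.51% on the uterine side) and 3.02% (2.35% and 0.665%) of all genes were called. DESeq2 also called 0 in each. At an unadjusted p under 0.05 by edgeR's quasi-likelihood test there were 2 in pericytes, Sfrp1 and Sfrp2, and 2 in endothelium, Nkd2 and Notum. With libraries paired by replicate number, endothelial Nkd2 was called, higher in the uterus (-0.88, adjusted p = 0.029). Rspo3 was at 7.60, 8.78, 14.7 and 9.07 CPM in pericytes and at 2.41, 1.76, 1.79 and 2.98 CPM in endothelium. Axin2 was at 41.5, 34.4, 36.4 and 49.1 CPM in pericytes and at 28.7, 21.4, 21.5 and 20.3 CPM in endothelium, overlapping between the organs in both classes.

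Whether an organ difference itself changed from layer to layer was tested in a model of 16 sums with the library as a term. The contrast of mesothelium with mesenchyme was added after the values were seen. Against mesenchyme, 5 of 10 genes had another organ difference in epithelium, 3 shifted to the oviduct side and 2 to the uterine side, where 21.9% of all genes tested were called, 14.2% and 7.76% by side. In mesothelium 8 of 10 did, 2 to the oviduct side and 6 to the uterine side, where 13.9% were called, 6.08% and 7.83% by side. In smooth muscle 3 of 10 did, 2 to the oviduct side and 1 to the uterine side, where 4.74% were called, 1.72% and 3.03% by side. Rspo1 in epithelium, and Sfrp5 in epithelium and mesothelium, were called on the oviduct side with 0 or 1 UMI per uterine library in that class. Their place in these counts is therefore only a description. For Lgr5 the epithelial and mesenchymal organ differences were apart by -5.91 ± 0.30 on the log2 scale (adjusted p = 3.77e-11). In mesothelium the organ difference of Rspo3 was apart from that of mesenchyme by -2.73 ± 0.14 (adjusted p = 6.36e-11), and that of Notum by -3.06 ± 0.35 (adjusted p = 3.09e-06). These 3 calls held under each alternative run for them. Axin2 was not called against epithelium (0.20 ± 0.21, adjusted p = 0.569) or mesothelium (0.27 ± 0.16, adjusted p = 0.309), and it was called against smooth muscle (0.54 ± 0.14, adjusted p = 0.0332), a call lost under 5 alternatives and without 3 of the libraries.

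Within mesenchyme, groups of cells differed in Axin2 more than the class sums of the organs did. Clusters had been built without the 10 genes and without the wider Wnt list. A cluster is described here, with no test, where it held 200 or more gated mesenchymal cells of an organ. In the oviduct a cluster of 1527 cells led by Wfdc1, Notum, Col7a1 and Col13a1 had Axin2 at 162 and 177 CPM, Notum at 185 and 169 CPM and Nkd2 at 151 and 138 CPM in replicates 1 and 2. Its Lgr5 was at 32.2 and 30.7 CPM and its Rspo1 at 131 and 125 CPM, both above the class sum. Sfrp1 was low there, at 29.6 and 33.7 CPM.

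Other oviduct clusters had the opposite makeup. A cluster of 1114 cells led by Angptl7, Hsd11b2 and Zim1 had Sfrp1 at 228 and 232 CPM, Axin2 at 24.3 and 19.3 CPM and Notum at 6.45 and 5.49 CPM. A cluster of 668 cells led by the neurofilament genes Nefm and Nefl had the most Sfrp4, 179 and 160 CPM, with Axin2 at 16.1 and 18.6 CPM and Nkd2 at 7.15 and 12.4 CPM. Rspo3 was alike across these clusters, at 126 to 166 CPM.

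Among these clusters of the uterus, Axin2, Nkd2 and Notum were highest in the same cluster and Rspo3 in another. Lgr5 was at only 0.291 and 0.335 CPM in the former. A cluster of 1349 cells led by Cntfr, Col7a1 and Cnr1 had Axin2 at 129 and 112 CPM, Nkd2 at 218 and 193 CPM and Notum at 42.4 and 50.4 CPM, with Rspo3 at 4.95 and 4.91 CPM and Sfrp1 at 23.1 and 16.2 CPM. A cluster of 771 cells led by Ogn, Zfpm2 and Col12a1 had Rspo3 at 244 and 239 CPM and Sfrp1 at 469 and 409 CPM, with Axin2 at 23.5 and 26.2 CPM and Notum at 3.62 and 2.20 CPM. Other clusters went another way. A uterine cluster of 356 cells led by Pcdh10, Ntng1 and Grm7 had Axin2 at 94.7 and 68.6 CPM with Sfrp1 at 138 and 130 CPM and Rspo3 at 141 and 133 CPM. The oviduct cluster led by Wfdc2, Fxyd3 and Krt18 had both Axin2 (38.5 and 33.6 CPM) and Sfrp1 (30.8 and 31.2 CPM) low. Its median mitochondrial share was 12.9%, and the set with matching gate and cluster left it out. Its gated cells had a median of 3474 UMIs, against 8884 to 18006 in the other oviduct clusters of this size. Mesenchymal cells of the oviduct and the uterus fell mostly into different clusters, and the part of this in the class differences above was not tested.

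**Figure D4:**
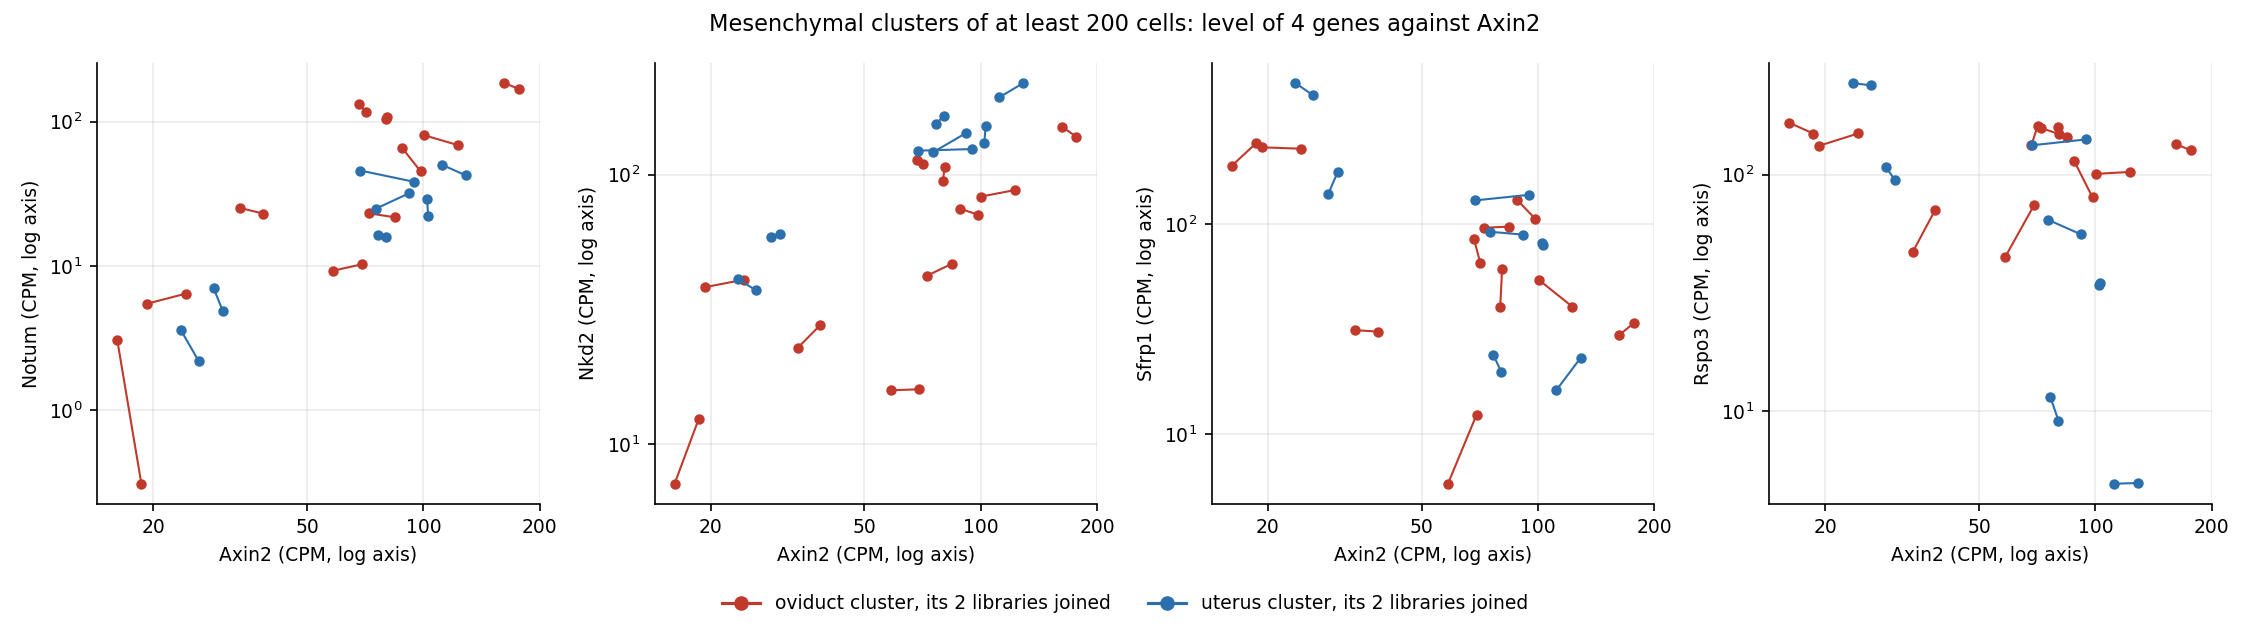
Levels of Notum, Nkd2, Sfrp1 and Rspo3 (CPM, log axis) against Axin2 (CPM, log axis) in cells of the mesenchymal gate, grouped by cluster. Clusters with 200 or more such cells of an organ are drawn, among them those named mesothelium and smooth muscle. A line joins the 2 libraries of a cluster. The oviduct cluster with Axin2 at 162 and 177 CPM has the highest Notum drawn, 185 and 169 CPM, and the uterine cluster with Axin2 at 129 and 112 CPM has Rspo3 at 4.95 and 4.91 CPM.

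Clusters that held cells of all 4 libraries allowed the organs to be set side by side within a cluster. In the cluster led by the cell division genes Cdc20, Cenpa and Cenpf (148, 111, 154 and 182 cells), Lgr5 was at 15.99, 23.4, 1.23 and 0.907 CPM, Notum at 65.5, 45.4, 22.1 and 29.0 CPM, and Nkd2 at 74.8, 71.1, 151 and 131 CPM. These 3 orders were those of the whole class, while Sfrp1, at 131, 106, 79.7 and 81.1 CPM, was higher in the oviduct and so opposite to the class sum. The uterine cluster led by Ogn, Zfpm2 and Col12a1, described above, also held oviduct cells, fewer than 200 of them (86, 86, 367 and 404 cells). There Rspo3 was at 166, 146, 244 and 239 CPM, higher in the uterus and so opposite to the class sum. Sfrp1 in that cluster was at 272, 247, 469 and 409 CPM, and Lgr5 had only 1 to 5 UMIs per library.

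Cells with a Notum UMI were set against cells without, as a description of what goes with Notum in the same mesenchymal cells. There were 1444, 890, 600 and 640 cells with Notum, of slightly higher depth (a median of 13272, 11497, 15270 and 16035 UMIs against 11897, 10584, 13370 and 14599). Axin2 in cells with Notum was 2.71, 2.71, 1.51 and 1.52 times its level in cells without. With each cell thinned to 2000 UMIs, the Axin2 ratios were 2.21, 2.43, 1.05 and 1.19, closer to 1 in the uterus than unthinned.

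The Nkd2 ratios were 3.102, 2.97, 1.61 and 1.63 unthinned and 2.53, 2.68, 1.48 and 2.02 thinned. Sfrp1 was lower in the cells with Notum in every library, with ratios of 0.310, 0.318, 0.272 and 0.272 unthinned and 0.291, 0.291, 0.205 and 0.418 thinned. Rspo3 was close between the sets in the oviduct (0.791 and 0.835) and lower with Notum in the uterus (0.342 and 0.291). Lgr5 went with Notum in the oviduct, at ratios of 2.51 and 2.80. The factor gene Lef1, which works with beta-catenin on target genes, also went with it unthinned, at 3.42, 3.11, 2.29 and 2.58. Lef1 was not read in thinned cells.

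**Figure D5:**
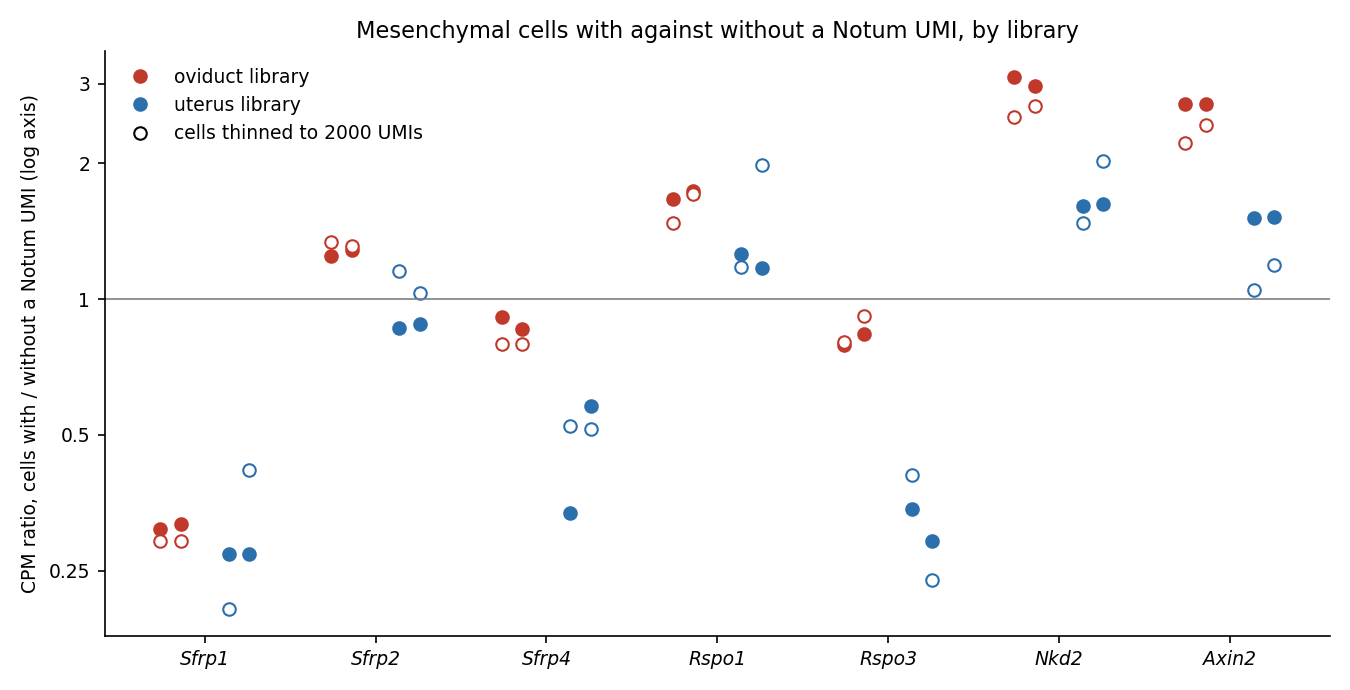
Ratio of each gene's CPM in mesenchymal cells with a Notum UMI to that in cells without, on a log axis, per library, unthinned and with each cell thinned to 2000 UMIs. Nkd2 lies above 1 and Sfrp1 below 1 in all 4 libraries at both depths, and thinned Axin2 in the uterus lies at 1.05 and 1.19.

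The share of mesenchymal cells with a UMI was read at a fixed depth. With each cell thinned to 2000 UMIs, and 134, 140, 76 and 69 shallower cells left out, Lgr5 was seen in 3.49% and 3.79% of oviduct cells and in 3 of 2468 and 0 of 2499 uterine cells, where 0 allows up to 0.12% of cells with an Lgr5 UMI at that depth. Unthinned, the Lgr5 shares were 13.2%, 11.9%, 0.826% and 0.584%. Nkd2 was seen in 13.1%, 11.5%, 23.5% and 20.9% of thinned cells and Axin2 in 13.7%, 13.7%, 14.6% and 12.4%. Unthinned, Nkd2 was seen in 45.0%, 39.0%, 68.5% and 67.2% of cells and Axin2 in 44.9%, 41.0%, 55.2% and 51.9%. In myeloid cells, set beside these as background, thinned shares were 2.13% or 0% for Nkd2, 2.70% or 0% for Lgr5 and for Rspo1 and 0% for Axin2, over 18 to 47 cells per library whose median depth before thinning was 2368 to 5258.5 UMIs against 10764 to 14897 in mesenchyme. Unthinned, the oviduct myeloid cells held 10 and 4 Axin2 UMIs, of which up to 14.7% and 19.4% could be free RNA. They are therefore no clean background for Axin2. The 35 and 18 thinned myeloid cells of the uterus had no Lgr5 UMI, which allows shares of up to 8.57% and 16.7% and sets no useful background for the uterine shares. Rspo1 was seen in 53.4%, 49.7%, 66.7% and 47.1% of thinned mesothelial cells, and in 94.4%, 93.2%, 97.6% and 97.1% unthinned. These intervals and limits cover counting error only.

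Of the 83 other pathway genes, 70 could be tested in mesenchyme and 43 differed between the organs, 26 on the oviduct side and 17 on the uterine side, where 46.4% of all genes tested were called, 24.5% and 21.9% by side. Their median log2 difference was 0.00, as over all genes. By role, 9 of 12 ligands, 11 of 14 inhibitors, 8 of 14 receptors, 10 of 12 factors and response genes, 3 of 11 intracellular parts and 0 of 2 ligand secretion genes differed. Of the R-spondin partners 2 of 5 did: Lgr4, a receptor, was higher in the oviduct by 0.70 ± 0.12 (adjusted p = 4.32e-04), and the ligase Rnf43 by 0.80 ± 0.23 (adjusted p = 0.0123, and 0.0562 to 0.114 under DESeq2, with the cells whose gate and cluster matched and without uterus replicate 2). Rspo2 (-0.47 ± 0.28, adjusted p = 0.188), Lgr6 (-0.40 ± 0.30, adjusted p = 0.291) and Znrf3 (0.18 ± 0.09, adjusted p = 0.112) did not pass, and Rspo4 was too low to be tested.

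The largest of these organ differences in mesenchyme, by a rule of size, level and no overlap, were Sostdc1 (3.82), Wnt16 (3.62), Fzd4 (3.14), Fzd8 (2.69) and Cd44 (2.25) on the oviduct side. On the uterine side were Ccnd1 (-1.95), Fzd1 (-1.60), Apcdd1 (-1.18), Wnt5b (-0.99) and Gpc4 (-0.60). Sostdc1, which binds Wnt co-receptors, was at 14.7, 11.7, 0.747 and 1.04 CPM. Response genes outside the 10 also split: Sp5 was higher in the oviduct by 4.29 ± 0.29 (4.06, 3.57, 0.138 and 0.228 CPM, adjusted p = 1.28e-07). Sp5 passed the count filter only through the oviduct, so its difference, its adjusted p and its place among the calls are only a description. The factors Tcf7 (-0.58 ± 0.09) and Lef1 (-0.53 ± 0.08) were higher in the uterus (adjusted p = 1.69e-04 and 2.92e-04), and Nkd1, the relative of Nkd2, did not pass (-0.03 ± 0.08, adjusted p = 0.771).

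In epithelium 25 of 57 tested pathway genes differed, 11 on the oviduct side and 14 on the uterine side, where 22.1% of all genes tested were called, 13.7% and 8.44% by side. By the same rule these were Wnt16 (5.51), Wnt5b (4.39), Wnt11 (3.08), Trabd2b (2.30) and Dkk3 (2.15), and on the uterine side Wnt7a (-1.76), Tnfrsf19 (-1.35), Fzd1 (-1.32), Fzd2 (-1.20) and Wls (-0.98). Dkk3 lost its call without oviduct replicate 2 and Fzd1 without uterus replicate 2 (adjusted p = 0.108 and 0.0816). In uterine epithelium Wnt16 was at 2.07 and 1.93 CPM and Wnt5b at 0.69 and 1.45 CPM, and both passed the epithelial count filter only through the oviduct. Their epithelial differences and their place in the count are therefore only a description. So is the order of Wnt5b, which was higher in uterine mesenchyme and in oviduct epithelium. Lgr4 was at 45.5, 64.4, 15.2 and 17.4 CPM, higher in oviduct epithelium by 1.87 ± 0.25 (adjusted p = 8.93e-05), opposite to Lgr5. Znrf3, which R-spondins clear, was higher in uterine epithelium by a difference of -0.98 ± 0.20 (adjusted p = 0.0028). Rnf43, Tcf7, Lef1 and Nkd1 did not pass (adjusted p 0.185 to 0.809), and Rspo2, Rspo4, Lgr6 and Sp5 could not be tested there.

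The genes whose levels were most like those of each response gene were found over 24 sums (6 classes in 4 libraries) and 10434 genes, by Pearson's correlation of log2(CPM + 1). The sums share libraries and depth, so the values are a description. For Axin2 they were Runx1t1 (0.922), B3gnt9 (0.922) and C1qtnf2 (0.915), and for Nkd2 Dnm3os (0.936), Vcan (0.934) and Tnnt1 (0.930). Vcan is also one of the markers that gated mesenchyme. For Lgr5 they were Aqp5 (0.917), Cxcl16 (0.911) and Krt17 (0.902), and for Notum Trpm5 (0.839), Col9a2 (0.836) and Gfpt1 (0.825).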

How the data were processed

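Single-cell counts were analysed from 4 libraries, 2 of oviduct and 2 of uterus. The deposited values are whole UMI counts per gene and barcode, made by the authors with Cell Ranger (6.0.1 for the called cells and 4 for all barcodes, per the file headers) on genome build mm10, with Seurat 4.2.3 also named, per the submitters' processing notes. Whether counting used strand is not given in the sources used here. Of 31053 gene IDs, 30934 were found in GENCODE M21.

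Of 26619 barcodes, 21326 passed the minimum of 500 genes and the maximum of 15% mitochondrial UMIs, and Scrublet scores removed 1162 doublets at a fixed rate of 0.8% per 1000 barcodes, which left 6488, 5524, 3872 and 4280 cells. Cells were put in 13 classes by 115 markers (score of at least 0.2, lead of at least 0.05 over the next class, at least 3 markers detected), which took 17508 cells. Leiden clustering (27 clusters, 2 of them unnamed, from 2000 variable genes, 30 components, 15 neighbours and resolution 1) was the alternative, without the 10 genes and the Wnt list. UMIs were summed per class and library, for classes with at least 20 cells in each, and tested across all genes with edgeR 4.0.16's quasi-likelihood test (TMM, filterByExpr, Benjamini-Hochberg, threshold 0.05). One model of 16 sums held library, class and organ within class. DESeq2 1.42.0 was an alternative. CPM is a gene's counts per 1000000 UMIs of the sum. Differences are log2 with their standard error. The largest share of a gene's UMIs that free RNA could give was bounded from droplets of at most 100 UMIs, by marker sets a class lacks. A lower bound against a group at 0 used a floor of 3 UMIs, and intervals of ratios and shares are exact at 95%.

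On simulated counts with 2-fold and 4-fold changes, the organ test recovered 83.7% and 99.7% in mesenchyme (15447 genes), 62.7% and 98% in epithelium (11928), 83.3% and 99.7% in smooth muscle (11896) and 58.7% and 93.7% in mesothelium (12094), with 7.87%, 5.68%, 8.19% and 2.97% false calls. In pericytes it recovered 71.7% and 100% (9437 genes) and in endothelium 81.3% and 100% (10982), with 6.7% and 6.04% false calls. The epithelial interaction recovered 57.3% and 77.7% (14614 genes), with 9.6% false calls. All of these but mesothelium lay above the nominal 5%. The simulations changed only a small part of the genes, while 46.4% of genes were called in mesenchyme. Their rates need not hold at such a share. Both organs came from the same neonates, per the labels, but the sample titles do not say that equal replicate numbers mark the same pool. Pairing by replicate number was therefore only an alternative. In mesenchyme the deviations of replicates 1 and 2 correlated at 0.268 between the organs over 10252 genes. Replicates differed beyond sampling noise.

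All 10 genes were named in mesenchyme, epithelium, smooth muscle and mesothelium, and in pericytes and endothelium those that could be tested. From the Wnt list the text names the 5 largest called organ differences per direction in mesenchyme and epithelium (mean of at least 5 CPM, no overlap), the R-spondin partners, Tcf7, Lef1, Sp5 and Nkd1, and the 3 genes most like each response gene. The genes and lists were chosen with earlier results of these data known. Chosen after the values were seen were the clusters described within classes, the Sp5 promoter, the score of 0.3 for smooth muscle clusters, the free RNA bound (revised once, to its smallest ratio), the interaction of mesothelium with mesenchyme, and the alternatives without a cluster mostly from uterus replicate 2 and with matching gate and cluster.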

Additional observations from a re-analysis of the deposited data

Results flagged for a closer look

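An organ difference (oviduct minus uterus, log2) that was not the same in 2 cell classes, by edgeR's interaction test with Benjamini-Hochberg adjustment over all genes, was met 16 times among the 10 genes. Each value is the organ difference of the named class minus that of mesenchyme. Those for mesothelium come from a contrast added after the values were seen.

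In epithelium Lgr5 was apart by -5.91 ± 0.30 (adjusted p = 3.77e-11), under each alternative run for it. In mesenchyme Lgr5 was higher in the oviduct, and in epithelium it was higher in the uterus. The epithelial organ difference rested on few uterine cells, lost its call without uterus replicate 2 (-0.69, adjusted p = 0.0833) and ran the other way in 1 shallow epithelial cluster. Notum, higher in the oviduct in both layers, was apart by 1.97 ± 0.48 (adjusted p = 0.00512), but not without uterus replicate 1 or 2 (1.96 and 1.82, adjusted p = 0.0594 and 0.119). Sfrp2 was apart by -1.07 ± 0.34 (adjusted p = 0.0259), but not with doublets kept, stricter cell filters or free RNA subtracted, or without oviduct replicate 1, uterus replicate 1 or uterus replicate 2 (adjusted p 0.054 to 0.16). Rspo1 was apart by 8.72 ± 1.35 (adjusted p = 7.76e-05) and Sfrp5 by 5.02 ± 1.72 (adjusted p = 0.0455). Uterine epithelium had 0 Rspo1 UMIs and 1 Sfrp5 UMI, so neither fitted value measures a size. Rspo1 lost its call with doublets kept (0.32, adjusted p = 0.701), and Sfrp5 with stricter cell filters, without the library term, and without oviduct replicate 2, uterus replicate 1 or uterus replicate 2 (adjusted p 0.055 to 0.237).

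In mesothelium Rspo3 was apart by -2.73 ± 0.14 (adjusted p = 6.36e-11), Notum by -3.06 ± 0.35 (adjusted p = 3.09e-06), Lgr5 by -3.80 ± 0.60 (adjusted p = 1.63e-04) and Rspo1 by -1.10 ± 0.11 (adjusted p = 5.90e-07). These 4 calls held under each alternative run for them. Sfrp4 was apart by -3.95 ± 0.77 (adjusted p = 0.0013), but not with the stricter marker gate (-3.57, adjusted p = 0.0573) or without the library term (-3.82, adjusted p = 0.15). It also lost its call without uterus replicate 2 (-3.46). Up to 100% of its 24 and 18 UMIs in oviduct mesothelium could be free RNA, and uterine mesothelium had 2 and 7. Sfrp2 was apart by -1.16 ± 0.23 (adjusted p = 0.00164), but not without uterus replicate 1 (-0.63, adjusted p = 0.264). Sfrp1 was apart by 0.93 ± 0.28 (adjusted p = 0.0288), but not with cells classed by cluster (0.22, adjusted p = 0.643), with matching gate and cluster, under DESeq2, without the library term, or without uterus replicate 1 or 2 (0.67 to 1.23, adjusted p 0.0587 to 0.358). Sfrp5 was apart by 12.02 ± 2.93 (adjusted p = 0.00992), a value set against 0 UMIs in uterine mesothelium that measures no size, and it lost its call without either uterine library (adjusted p = 0.179 and 0.0814).

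In smooth muscle Sfrp2 was apart by -1.55 ± 0.21 (adjusted p = 6.04e-05), a call that held under each alternative run for it. It was higher in the oviduct in mesenchyme and in the uterus in smooth muscle, the latter not with cells classed by cluster (-0.20, adjusted p = 0.134). Rspo3 was apart by 0.80 ± 0.14 (adjusted p = 0.00107), but not with cells classed by cluster (0.42, adjusted p = 0.0794), under DESeq2, without the library term or without uterus replicate 1 (0.62 to 0.80, adjusted p 0.0638 to 0.0727). Axin2 was apart by 0.54 ± 0.14 (adjusted p = 0.0332), but not with the stricter gate, matching gate and cluster or free RNA subtracted, under DESeq2, without the library term, or without oviduct replicate 1, oviduct replicate 2 or uterus replicate 1 (0.33 to 0.62, adjusted p 0.0639 to 0.478).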

How the results depend on the processing

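Over 12 alternatives and 4 libraries left out in turn, the values of the 10 genes kept their side of the threshold in 1340 of the alternatives' values and 499 of the values without 1 library. These counts do not say whether values that did not pass the test kept their sign. The call was lost in 48 and 35 and gained in 14 and 6, and in 4 and 0 a value that had not passed the test passed it in the other direction. With cells classed by cluster, smooth muscle Sfrp1 was higher in the uterus (-1.09, adjusted p = 1.20e-05), its interaction with mesenchyme was -0.97 (adjusted p = 0.00134), and uterine smooth muscle had more Rspo3 than mesenchyme (0.33, adjusted p = 0.0187). With doublets kept, endothelial Sfrp2 was higher in the oviduct (1.19, adjusted p = 0.0177). The cause was not tested.

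Of the organ differences, the stricter marker gate called 4 of 9 tested genes in smooth muscle, with 1390 calls over all genes. In mesothelium it called 2 of 9, with 382 over all genes, and free RNA subtraction called 2 of 8, with 523. Cells classed by cluster and no filter on low counts each called 1 gene in pericytes, of 6 and 10 tested, with 669 and 651 calls over all genes. Doublets kept and no filter on low counts each called 1 in endothelium, of 7 and 9 tested, with 465 and 535 calls over all genes. Interaction calls came to 3 of 10 in epithelium with the stricter cell filters, with 3190 over all genes. They came to 1 of 10 in smooth muscle under DESeq2 and without the library term, with 540 and 450 over all genes.

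Counts of calls over all genes that moved by over 1.5 times were as follows. Among organ differences, epithelium had 2699 (1549 under DESeq2, 1630 without oviduct replicate 2) and smooth muscle 2696 (1390 with the stricter gate, 1424 under DESeq2, 1723 without uterus replicate 1). Mesothelium had 764 (382 with the stricter gate, 438 under DESeq2, 1156 without the filter, 1173 with the replicate block). Pericytes had 462 (178 under DESeq2, 288 without oviduct replicate 1) and endothelium 336 (149 under DESeq2, 535 without the filter, 133 and 193 without uterus replicates 1 and 2). Smooth muscle against mesenchyme had 3784 in the oviduct (1960 and 1952 without replicates 1 and 2) and 1946 in the uterus (3099 by cluster, 1036 and 1140 without replicates 1 and 2). The interactions had 3259 in epithelium (2154 and 2081 without uterus replicates 1 and 2), 705 in smooth muscle (450 without the library term, 436 without oviduct replicate 2, 338 and 395 without uterus replicates 1 and 2) and 2067 in mesothelium (1037 and 1190 without them).

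Without 1 library, organ calls were 7 to 8 in mesenchyme, 2 to 4 in epithelium (2 without uterus replicate 2), 5 to 7 in smooth muscle, 3 to 4 in mesothelium, and 0 to 1 in pericytes (without uterus replicate 2) and in endothelium (without oviduct replicate 1). Interaction calls were 2 to 4 in epithelium (2 without either uterine library), 1 to 3 in smooth muscle (1 without uterus replicate 1) and 5 to 8 in mesothelium (5 without either uterine library). Calls between classes were 5 to 10.

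With the replicate block, which pairs libraries by replicate number, endothelium had 1 call, Nkd2 (-0.88, adjusted p = 0.029), and no other call of the 10 genes changed. Endothelium then had 369 calls over all genes. An arm with 1 library left was assumed to vary like the others. Epithelium and mesothelium of the uterus are limited by their number of cells, 65, 90, 42 and 34.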
